A study of Homo sapiens with 8 samples.

Results

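The genes described are the CDK inhibitors and the D cyclins, 10 genes of the 28265 listed in the deposited count tables. They were taken by gene symbol and not by a cut on their values, though with earlier results of these data known. They fall into 3 CIP/KIP inhibitors (CDKN1A, CDKN1B and CDKN1C), 4 INK4 inhibitors (CDKN2A, CDKN2B, CDKN2C and CDKN2D) and 3 D cyclins (CCND1, CCND2 and CCND3). Factory RNA-Seq, which sequences nascent RNA held at transcription factories, was applied to IMR90, a human fetal lung fibroblast line with a finite lifespan in culture. There were 8 libraries in 4 conditions, with 2 replicates in each. All were from low-passage cells: an untreated wild type control (titled "young"), cells treated with ICM for 3 days (ICM_3days), cells treated with ICM for 6 days (ICM_6days), and a condition labelled MetaICM. ICM is inflachromene, a small molecule that binds the chromatin proteins HMGB1 and HMGB2. The labels give no ICM concentration, no vehicle for the control and no schedule for MetaICM, so that MetaICM is described by its name alone. Nothing in the labels says that replicates were separate cultures, so the p-values measure the spread between these libraries, which may be technical.

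D cyclins bind CDK4 and CDK6 in response to growth signals, and the resulting kinases phosphorylate the retinoblastoma protein RB, which releases E2F transcription factors and lets cells pass from G1 into S phase. INK4 proteins bind CDK4 and CDK6 themselves and keep D cyclins from activating them, whereas CIP/KIP proteins bind whole cyclin-CDK complexes, block CDK2, and can also help D cyclins assemble with CDK4 and CDK6. In fibroblasts, p21 (from CDKN1A) and p16 (from CDKN2A) are the inhibitors best known for holding senescent cells out of the cycle. The question these samples address is how transcription changes over ICM treatment, and it is followed here through the brakes and accelerators of G1.

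The count tables use RefSeq gene models on hg19. CDKN1A lies on the plus strand of chromosome 6 from 36644240 to 36655109, and CCND3 on the minus strand of the same chromosome from 41902671 to 42016632. CDKN1B (12870204 to 12875316) and CCND2 (4382928 to 4414518) are on the plus strand of chromosome 12. CDKN1C (2904448 to 2907005, minus strand) and CCND1 (69455924 to 69469242, plus strand) are on chromosome 11. CDKN2A (21967751 to 21995323) and CDKN2B (22002902 to 22009312) are neighbours on the minus strand of chromosome 9. CDKN2C is on the plus strand of chromosome 1 from 51434367 to 51440306, and CDKN2D on the minus strand of chromosome 19 from 10677136 to 10679655. Counts were of read pairs over exons, so pairs lying wholly within introns are left out. The paper takes intronic RNA levels to reflect direct changes in transcription. Exon counts do not separate unspliced from spliced RNA, so a change in them need not be one of transcription alone. The exon length of the members ran from 1425 bases for CDKN2D to 6492 bases for CCND2.

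A count for CDKN2A cannot separate p16 from p14ARF, which share exons, and 344 of its 2582 exon bases also belong to genes on the opposite strand, 341 of them to the antisense RNA CDKN2B-AS1. CDKN1A shares 238 of 3388 exon bases with the opposite-strand gene DINOL, and CCND2 shares 126 of 6492 with CCND2-AS1. Counting did not use strand and left out pairs on more than 1 gene, so elsewhere in an exon, reads from the opposite strand would be counted for the member. Among the 10 members, identical stretches of 50 bases were found in the pair CDKN2A and CDKN2B only. They shared 31 such windows, 1.35% of the windows of CDKN2A and 0.8% of those of CDKN2B. Windows that differ by a base or more were not looked for.

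CDKN1A was the member raised most by ICM, and its start region is shown for that reason. The 200 bases before the start at 36646491 (hg19, chr6:36646291-36646490, plus strand, RefSeq sequence placed on the GRCh37 genome by an exact match) carry the GC box, GGGCGG, the letters bound by SP1-type factors, in capitals at 4 positions:
CDKN1A: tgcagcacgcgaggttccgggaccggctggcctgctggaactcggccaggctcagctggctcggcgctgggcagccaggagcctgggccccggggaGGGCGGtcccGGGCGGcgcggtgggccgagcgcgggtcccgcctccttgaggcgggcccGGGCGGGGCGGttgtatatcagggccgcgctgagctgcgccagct

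The matches begin 104, 94, 45 and 40 bases before that start, and the last pair overlap by 1 base. That start is an exon start inside CDKN1A as counted, which begins further upstream at 36644240, and the region before 36644240 was not searched. Promoter sequences were matched for 7 members, and CDKN1C, CCND1 and CCND2 had none. Only 1 start was used for each gene. For CDKN2A it was 21995323, the upstream end of the gene, and starts further inside the gene were not searched. That window was not assigned to p16 or p14ARF. On either strand, within 250 bases before the start, GGGCGG was found in 5 of the 7, and in 42.31% of 27305 RefSeq promoters (GRCh38.p14). The E2F letters TTTNNCGC were found in 1 of the 7 (CDKN2D) and in 5.93% of all promoters. CACGTG was found in 1 (CDKN2C, 6.49% of all), in a window whose start lies 7950 bases from the nearest counted exon start of that gene, CCAAT in 2 (CDKN1B and CDKN2D, 33.04%), and TGACGTCA (1.77%) and TATAAA (11.13%) in 0. These are matches of letters in a window, and nothing was measured of any factor's binding.

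The total of counted pairs ranged from 12095123 to 23166405 per library. Replicates of the control differed most, by a median of 0.233 (log2, absolute) over genes, where the value was 0.178 in ICM_3days, 0.139 in ICM_6days and 0.121 in MetaICM. Levels are given as CPM, the pairs of a gene per 1000000 pairs in its library, scaled by TMM factors over the 8 libraries. Such levels, and the fold changes below, are relative to the other genes of a library. A change in RNA per cell shared by most genes would not be seen in them. The paper reports a fall in labelled nascent RNA in nuclei and nucleoli with ICM. Words such as rose, fell and higher therefore describe relative levels, and the amount of RNA per cell was not tested. Of 8 fibroblast markers none was at 0 in any library. Their summed level was 22110 to 22412 CPM in control, 12372 to 13749 in ICM_3days, 10596 to 10891 in ICM_6days and 19347 to 20267 in MetaICM. By the rule given next, 6 of 8 were called lower than control after 3 days and 5 after 6 days (13.2% and 17.2% of all genes). The summed level of 8 markers of proliferating cells was 1751 to 1825 CPM in control, 166 to 180 in ICM_3days, 142 in both ICM_6days libraries and 984 to 996 in MetaICM. Of 3 haematopoietic markers, CD3E was at 0 in all 8 libraries and the sum ran from 4.39 to 21.1 CPM, nearly all of it CD68. The summed epithelial markers were 64.4 to 97.8 CPM in control, 35.8 to 36.6 in ICM_3days, 34.9 to 36.9 in ICM_6days and 59.8 to 61.9 in MetaICM. EPCAM was under 1 CPM throughout, and KRT18 was called lower than control after 3 and 6 days (-1.27 and -1.33). The endothelial sums were 3.40 to 4.22 CPM in control, 5.66 to 5.94 in ICM_3days, 6.38 to 6.66 in ICM_6days and 2.04 to 2.87 in MetaICM. VWF was called higher than control after 6 days (0.88). A change in the number of cells of a type and a change in marker RNA per cell cannot be told apart in such bulk libraries.

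A gene was called where the quasi-likelihood test of edgeR gave a p under 0.05 after Benjamini-Hochberg adjustment over all genes and the log2 fold change exceeded 0.6 in size. All 10 members passed the filter on low counts in each of the 6 comparisons. After 3 days of ICM, CDKN1A, CDKN2B and CCND3 rose, and CDKN1B, CDKN2C and CCND2 fell. Those were 3 of 10 members in each direction, where 8.85% of 15692 genes were called higher and 13.2% lower. After 6 days, CDKN1A, CDKN2B and CCND3 were again higher than control, and CDKN1C, CDKN2C and CCND2 lower, against 13.3% and 17.2% of 15950 genes. In MetaICM, CDKN1A and the 3 D cyclins were higher than control, and 0 of 10 members were called lower by edgeR, where 7.41% and 8.99% of 15904 genes were called. At an unadjusted p under 0.05, 0 members were lower in MetaICM, and DESeq2 also called 0. The 3 comparisons with control share its libraries and are not independent of each other.

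**Figure D1:**
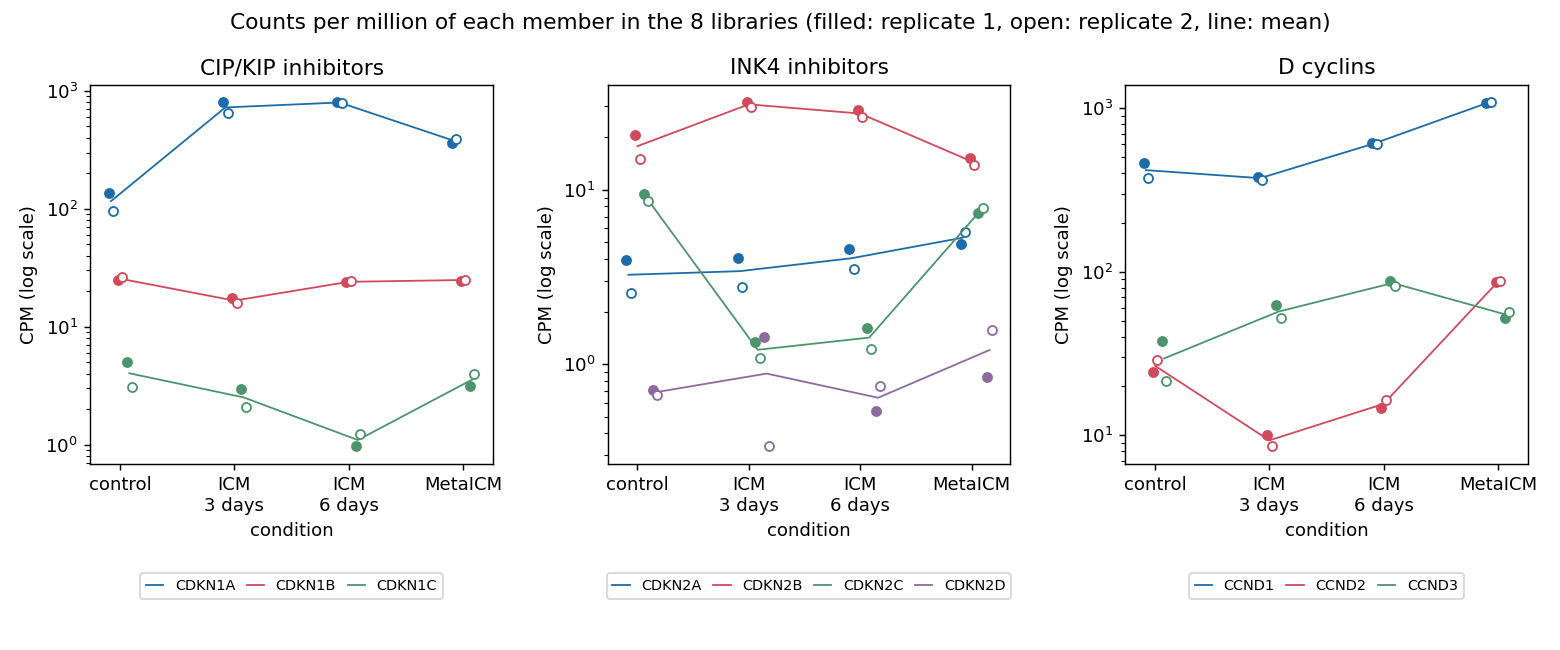
Level of each CDK inhibitor and D cyclin in CPM (log axis) in each of the 8 libraries, by condition, with filled points for replicate 1, open points for replicate 2 and lines through the means of 2. CDKN1A lies at 95.3 to 137 CPM in control and at 645 to 803 CPM with ICM, CDKN2C drops from 8.62 to 9.40 CPM to 1.08 to 1.61 CPM, and CCND2 is highest in MetaICM at 86.4 and 87.3 CPM.

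Of the CIP/KIP inhibitors, CDKN1A encodes p21, which inhibits CDK2 and binds PCNA. It stood at 137 and 95.3 CPM in control, 803 and 645 in ICM_3days, 802 and 794 in ICM_6days, and 365 and 392 in MetaICM. All treated libraries lay above both controls, and the MetaICM libraries lay between control and the ICM time points without overlap. The log2 fold change against control was 2.63 ± 0.18 (standard error, n = 2 per condition, edgeR adjusted p = 5.39e-07) after 3 days, a fold of 6.21, and 2.77 ± 0.16 (adjusted p = 6.45e-07) after 6 days, a fold of 6.83. These were the 72nd largest of the increases at 3 days and the 101st at 6 days. Between 3 and 6 days the difference of 0.14 ± 0.10 did not pass the test (edgeR adjusted p = 0.377), and the libraries overlapped. MetaICM exceeded control by 1.69 ± 0.16 (edgeR adjusted p = 0.000133) and was below ICM_6days by a log2 fold change of -1.08 ± 0.08 (adjusted p = 1.07e-10) and below ICM_3days by -0.93 ± 0.10 (adjusted p = 4.99e-06). The order of CDKN1A was thus control, MetaICM, then the 2 ICM time points, which did not differ beyond their spread.

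CDKN1B encodes p27, the CIP/KIP protein that accumulates in quiescent cells and is removed by the SCF-SKP2 ubiquitin ligase. Its levels were 24.7 and 26.4 CPM in control, 17.5 and 15.8 in ICM_3days, 23.7 and 24.3 in ICM_6days, and 24.7 and 25.2 in MetaICM. Only the ICM_3days libraries were apart from the rest, all of which lay within 23.7 to 26.4 CPM. The 3-day decrease was -0.62 ± 0.16 on the log2 scale (edgeR adjusted p = 0.0117), just past the fold threshold. It was -0.54 with scaling by library totals, -0.57 without control replicate 2, and -0.54 without ICM_3days replicate 2 (edgeR adjusted p = 0.108), none of which would be called. At 6 days the level was above that at 3 days by 0.52 ± 0.12 (edgeR adjusted p = 0.00559), a value of 0.61 and a call without ICM_3days replicate 1, and the difference from control was -0.09 ± 0.13 (adjusted p = 0.617). MetaICM was above ICM_3days by 0.58 ± 0.11 (edgeR adjusted p = 0.00091), short of the fold threshold, and by 0.66 without ICM_3days replicate 1.

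CDKN1C encodes p57, an inhibitor expressed from the maternal allele. It was a low gene, at 5.0 and 3.07 CPM in control, 2.94 and 2.09 in ICM_3days, 0.967 and 1.22 in ICM_6days, and 3.12 and 4.00 in MetaICM, from 18 to 92 counts a library. Both ICM_6days libraries were below the other 6, while MetaICM and control overlapped. The 6-day decrease against control was -1.90 ± 0.34 (edgeR adjusted p = 0.00131), whereas the 3-day difference of -0.68 ± 0.32 did not pass (adjusted p = 0.135) unless control replicate 2 was left out (-0.97, adjusted p = 0.0179). It was lower at 6 than at 3 days by -1.22 ± 0.33 (edgeR adjusted p = 0.0136), a call that was lost with DESeq2 (adjusted p = 0.0770), without ICM_3days replicate 1 (edgeR, -0.93, adjusted p = 0.108) and without ICM_6days replicate 1 (-1.07, adjusted p = 0.102). MetaICM exceeded ICM_6days by 1.70 ± 0.28 (edgeR adjusted p = 2.75e-05) and differed from control by -0.21 ± 0.28 (adjusted p = 0.610). Against ICM_3days it differed by 0.48 ± 0.26 (edgeR adjusted p = 0.149), and by 0.78 without ICM_3days replicate 1 (adjusted p = 0.0461). CDKN1A and CDKN1C, which encode proteins of the same family, were therefore called in opposite directions at 6 days.

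CPM per kb divides the level of a gene by all its exon bases, including bases shared with another gene, where pairs could go uncounted. On this scale, which allows levels to be set roughly against each other between genes, CDKN1A held 76.6% and 70.0% of the summed CIP/KIP level in the control libraries, 96.6% and 96.3% in ICM_3days, 96.0% and 95.8% in ICM_6days, and 90.4% and 90.6% in MetaICM. In control it stood at 34.3 ± 8.80 CPM per kb (SD, n = 2) beside 10.1 ± 0.488 for CDKN1B and 2.08 ± 0.704 for CDKN1C. At 6 days those levels were 236 ± 1.65, 9.54 ± 0.168 and 0.564 ± 0.0932 CPM per kb. The family's order was the same in all 8 libraries.

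**Figure D2:**
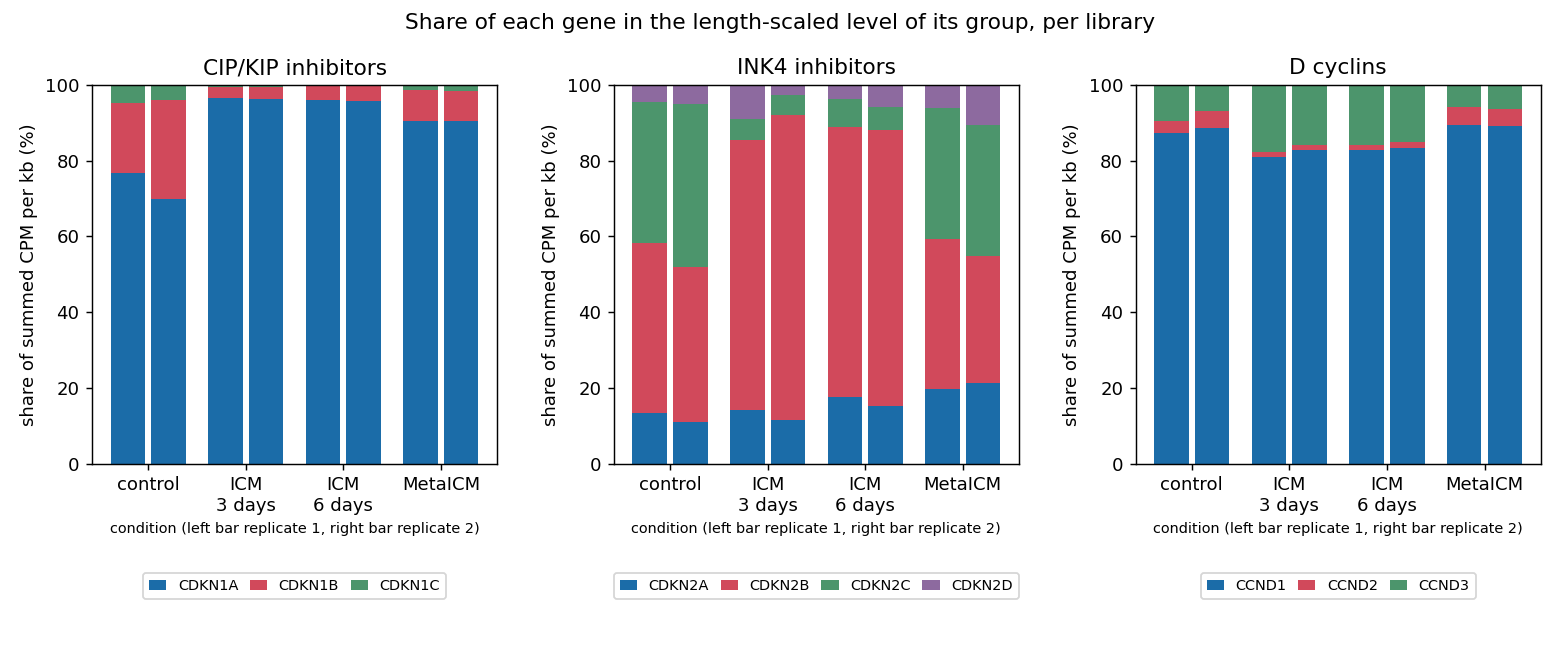
Share of each gene in the CPM per kb summed over its group (%), with 1 bar per library and the left bar of each pair for replicate 1. CDKN1A fills 95.8% to 96.6% of the CIP/KIP level with ICM, CDKN2B 71.3% to 80.7% of the INK4 level with ICM, and CCND1 80.9% to 89.5% of the D cyclin level in all libraries.

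Of the INK4 inhibitors, CDKN2A stood at 3.93 and 2.57 CPM in control, 4.05 and 2.77 in ICM_3days, 4.57 and 3.51 in ICM_6days, and 4.90 and 5.69 in MetaICM. The ICM time points overlapped control, and only the MetaICM libraries lay above all others. The difference from control was 0.07 ± 0.31 after 3 days (edgeR adjusted p = 0.899) and 0.28 ± 0.28 after 6 days (adjusted p = 0.440). These values rest on 31 to 131 counts a library. MetaICM exceeded control by 0.68 ± 0.25 without passing (edgeR adjusted p = 0.0688), and it was called without control replicate 1 (1.04, adjusted p = 0.00566) and where all genes with a count were tested (0.70, adjusted p = 0.0162). It exceeded ICM_3days by 0.62 ± 0.23 (edgeR adjusted p = 0.0411), and that call was lost with DESeq2 (adjusted p = 0.139), with upper-quartile or library-total scaling (0.59 and 0.56), with all 8 libraries in 1 fit (edgeR adjusted p = 0.0689), and without ICM_3days replicate 2 (0.40), MetaICM replicate 1 (adjusted p = 0.0509) or MetaICM replicate 2 (0.50).

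CDKN2B encodes p15, known as a target of TGF-beta signalling. Its values were 20.5 and 14.9 CPM in control, 31.7 and 29.9 in ICM_3days, 28.4 and 26.1 in ICM_6days, and 15.2 and 13.8 in MetaICM. Both ICM conditions lay above both control libraries, and MetaICM overlapped control. The increase was 0.79 ± 0.17 after 3 days (edgeR adjusted p = 0.00516) and 0.61 ± 0.17 after 6 days (adjusted p = 0.0141), with no difference passing between the time points (-0.18 ± 0.11, adjusted p = 0.284). Without control replicate 2 these values were 0.58 and 0.41, under the fold threshold at both times, and without ICM_6days replicate 1 the 6-day value was 0.55 (edgeR adjusted p = 0.137). MetaICM was below ICM_3days by -1.09 ± 0.11 (edgeR adjusted p = 2.65e-06) and below ICM_6days by -0.91 ± 0.10 (adjusted p = 2.20e-07). Against control MetaICM differed by -0.30 ± 0.17 (edgeR adjusted p = 0.213).

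CDKN2C encodes p18, and it was the member that fell most. It measured 9.40 and 8.62 CPM in control, 1.33 and 1.08 in ICM_3days, 1.61 and 1.22 in ICM_6days, and 7.33 and 7.86 in MetaICM. The 4 ICM libraries lay far below the other 4, and MetaICM lay just below control without overlap. The log2 fold change was -2.88 ± 0.28 after 3 days (edgeR adjusted p = 9.03e-06) and -2.67 ± 0.25 after 6 days (adjusted p = 1.58e-05), folds of 0.136 and 0.157. Only 1.26% of all genes tested fell as much or more at 3 days and 2.28% at 6 days. The time points differed by 0.21 ± 0.36 (edgeR adjusted p = 0.742). MetaICM exceeded ICM_3days by 2.63 ± 0.24 (edgeR adjusted p = 5.75e-07) and ICM_6days by 2.42 ± 0.22 (adjusted p = 7.23e-09), and its difference from control of -0.25 ± 0.17 did not pass (adjusted p = 0.307). The summed proliferation markers, given above, were low in the same 4 libraries, and their part in this result was not tested.

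CDKN2D, which encodes p19, was the lowest member, with 5 to 36 counts a library. It gave 0.714 and 0.663 CPM in control, 1.43 and 0.337 in ICM_3days, 0.537 and 0.744 in ICM_6days, and 0.842 and 1.56 in MetaICM. The ICM_3days replicates were the farthest apart. With all libraries, none of its 6 comparisons was called by edgeR, and the standard errors of 0.41 to 0.60 on the log2 scale were the widest of the members. The difference nearest to passing was MetaICM above ICM_6days (0.92 ± 0.41, edgeR adjusted p = 0.0641), which was called without MetaICM replicate 1 (edgeR, 1.28, adjusted p = 0.0256) and where at least 10 counts were asked of each library (0.93, adjusted p = 0.0429). MetaICM against ICM_3days gave 0.35 ± 0.50, and 1.84 without ICM_3days replicate 1 (edgeR adjusted p = 0.0269).

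Per kb of exon, the summed INK4 level stayed between 8.99 and 11.4 CPM per kb in all 8 libraries while its makeup changed. CDKN2B and CDKN2C were nearly level in control, at 4.45 ± 0.996 and 4.09 ± 0.252 CPM per kb (SD, n = 2). CDKN2B held 45.0% and 41.0% of the INK4 sum in control, 71.5% and 80.7% in ICM_3days, 71.3% and 72.9% in ICM_6days, and 39.6% and 33.5% in MetaICM. CDKN2C held 37.3% and 42.9% in control, 5.45% and 5.28% in ICM_3days, 7.32% and 6.18% in ICM_6days, and 34.6% in both MetaICM libraries. CDKN2A, the source of p16, held no more than 21.3% of the sum in any library. Its length of 2582 bases includes 344 shared with other genes and the exons of both p16 and p14ARF, so this share may be too low.

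Among the D cyclins, CCND1 was by far the highest gene in every library. Cyclin D1 is induced by mitogens and is the main D cyclin of fibroblasts. Its levels were 463 and 373 CPM in control, 382 and 365 in ICM_3days, 612 and 606 in ICM_6days, and 1079 and 1089 in MetaICM. Control and ICM_3days overlapped, ICM_6days lay above both, and MetaICM lay above all. The difference from control was -0.17 ± 0.13 after 3 days (edgeR adjusted p = 0.386) and 0.54 ± 0.12 after 6 days (adjusted p = 0.00608), the latter short of the fold threshold with both controls and past it without control replicate 1 (0.70). From 3 to 6 days CCND1 rose by 0.70 ± 0.09 (edgeR adjusted p = 9.85e-06). MetaICM exceeded control by 1.37 ± 0.14 (edgeR adjusted p = 0.000196), ICM_3days by 1.54 ± 0.08 (adjusted p = 2.84e-09) and ICM_6days by 0.83 ± 0.08 (adjusted p = 6.35e-09).

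CCND2 encodes cyclin D2. It stood at 24.5 and 28.8 CPM in control, 10.1 and 8.57 in ICM_3days, 14.8 and 16.4 in ICM_6days, and 86.4 and 87.3 in MetaICM. No 2 conditions overlapped, and the order ran from ICM_3days through ICM_6days and control to MetaICM. The decrease against control was -1.51 ± 0.18 after 3 days (edgeR adjusted p = 5.30e-05) and -0.77 ± 0.15 after 6 days (adjusted p = 0.00231), and the 6-day level exceeded the 3-day level by 0.73 ± 0.15 (adjusted p = 0.00200). Without ICM_6days replicate 1 the 6-day decrease was -0.70 and missed the threshold (edgeR adjusted p = 0.0524). In MetaICM, CCND2 was above control by 1.71 ± 0.12 (edgeR adjusted p = 3.76e-05, a fold of 3.26), above ICM_6days by 2.48 ± 0.09 (adjusted p = 1.46e-15, a fold of 5.57) and above ICM_3days by 3.21 ± 0.11 (adjusted p = 3.34e-11, a fold of 9.26). Only 0.592% of the 16209 genes tested rose as much or more between ICM_3days and MetaICM.

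CCND3 encodes cyclin D3. It measured 37.7 and 21.4 CPM in control, 62.2 and 51.9 in ICM_3days, 88.3 and 82.4 in ICM_6days, and 51.9 and 57.1 in MetaICM. Every treated library lay above both controls, and ICM_6days lay above all others, while MetaICM and ICM_3days overlapped. The increase was 0.94 ± 0.22 after 3 days (edgeR adjusted p = 0.00662), 1.51 ± 0.21 after 6 days (adjusted p = 0.000254) and 0.87 ± 0.21 in MetaICM (adjusted p = 0.0131). The control replicates were far apart for this gene, and without control replicate 2 the 3-day and MetaICM values were 0.60 and 0.53, both under the fold threshold before rounding. The 6-day level was above the 3-day level by 0.57 ± 0.10 (edgeR adjusted p = 0.000628), short of the threshold with all libraries and past it without ICM_3days replicate 1 (0.72) or ICM_6days replicate 2 (0.62). It was above MetaICM, which differed from ICM_6days by -0.65 ± 0.08 (edgeR adjusted p = 5.54e-07), and this value was -0.59 without ICM_6days replicate 1 and -0.57 without MetaICM replicate 1.

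Per kb of exon the D cyclins summed to 125 and 99.2 CPM per kb in control, 111 and 104 in ICM_3days, 175 and 171 in ICM_6days, and 284 and 288 in MetaICM. CCND1 made up between 80.9% and 89.5% of that sum in each library. CCND3 held 9.55% and 6.82% in control, 17.7% and 15.8% in ICM_3days, 16% and 15.2% in ICM_6days, and 5.77% and 6.27% in MetaICM. After 3 days of ICM, then, CCND1 did not pass the test, CCND2 fell and CCND3 rose, whereas in MetaICM all 3 were above control.

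**Figure D3:**
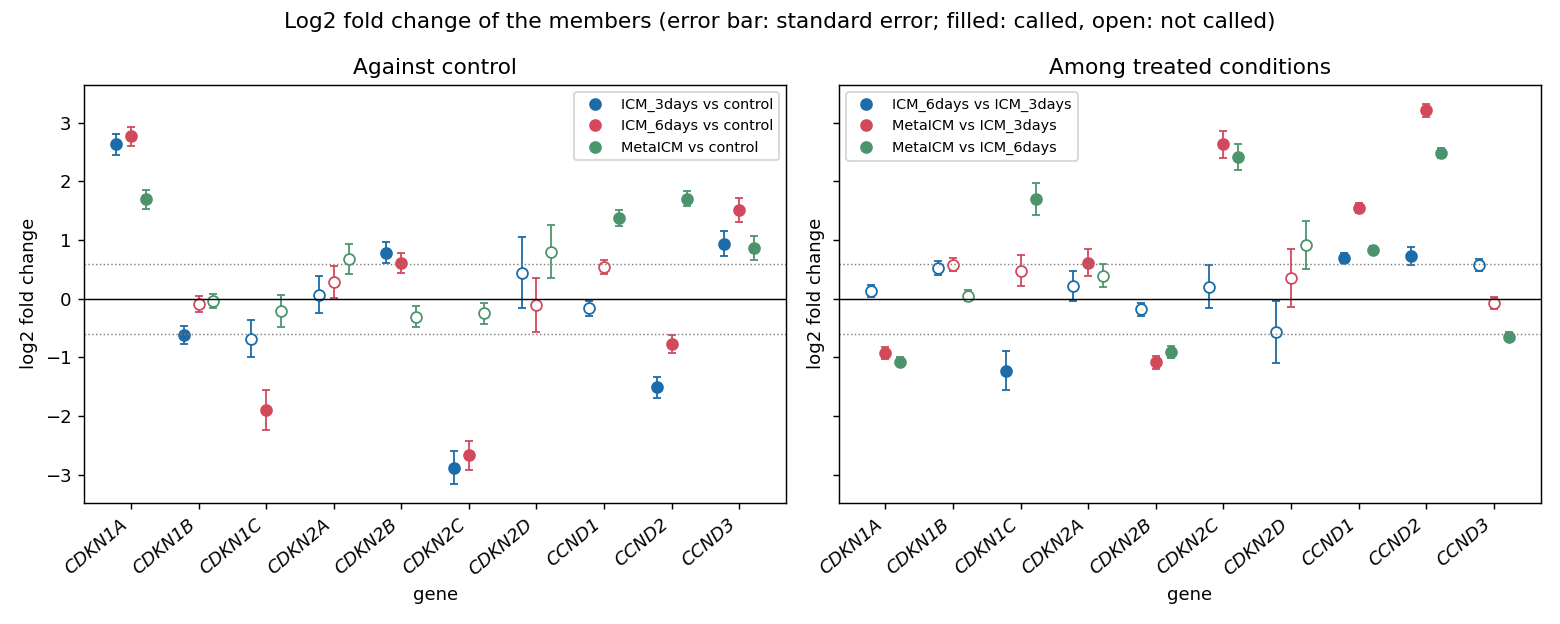
Log2 fold change of the 10 genes from edgeR, against control (left) and among the treated conditions (right), with standard errors, filled points for called genes and dotted lines at the threshold of 0.6. CDKN1A lies at 2.63, 2.77 and 1.69 against control, and CCND2 at -1.51, -0.77 and 1.71.

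The remaining comparisons set the treated conditions against each other. Between 3 and 6 days of ICM, CCND1 and CCND2 were called higher and CDKN1C lower, 2 and 1 of 10 members, where 3.53% and 4.54% of 15845 genes were called. Against ICM_6days, MetaICM had CDKN1C, CDKN2C, CCND1 and CCND2 higher and CDKN1A, CDKN2B and CCND3 lower, 4 and 3 of 10, beside 15.7% and 12% of 16036 genes. Against ICM_3days, it had CDKN2A, CDKN2C, CCND1 and CCND2 higher and CDKN1A and CDKN2B lower, 4 and 2 of 10, beside 13.1% and 10.3% of 16209 genes. The median log2 fold change of the members was 0.61 between MetaICM and ICM_6days and 0.53 between MetaICM and ICM_3days, beside 0.01 over all genes tested in each. The inhibitors did not move as a set: in MetaICM, CDKN1A and CDKN2B were below both ICM time points and CDKN2C above both.

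The patterns of the members over the 8 libraries are described by Pearson's r of log2 CPM, with n = 8 libraries that share their conditions and depth. CDKN1A and CCND3 had an r of 0.92, CCND1 and CCND2 an r of 0.83, and CDKN2A and CCND1 also 0.83. CDKN2B and CCND2 were the most opposed members, with an r of -0.92, followed by CDKN2B and CDKN2C with -0.90 and CDKN1A and CDKN2C with -0.85. The genes named next had the 2 highest r for a member in a search of 9277 other genes at a mean of at least 10 CPM. A maximum over so many genes, in 4 conditions with 2 replicates each, can be high without any link. No link was tested. Nearest to CDKN1A were ZNF23 and TIGAR (both 0.996), the latter a regulator of glycolysis. CDKN2C was nearest to KIF20A, a mitotic kinesin, and PHF19, a Polycomb-associated protein (both 0.997). The nearest genes to CCND1 were PRSS23 (0.997) and P3H4 (0.994), to CCND2 SAMHD1, a dNTP hydrolase, and LOXL3 (both 0.991), and to CCND3 COQ9 (0.998) and GMPPB (0.995). CDKN1B was nearest to EIF1AX (0.974) and EPRS1 (0.973), CDKN1C to ARHGEF17 (0.994) and PKD1 (0.992), CDKN2A to TSPYL5 (0.973) and TKFC (0.971), and CDKN2B to DIP2B (0.992) and CNNM4 (0.990).

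A list of 47 other genes of the G1 pathway was followed beside the members. After 3 days of ICM, 3 of 47 were called higher and 15 lower, where 8.85% and 13.2% of all genes were. After 6 days, 6 of the 46 tested were called higher and 13 lower (13.3% and 17.2% of all genes), and in MetaICM 1 and 2 of 46 against control (7.41% and 8.99%). The list's median log2 fold change was -0.13, -0.17 and -0.04 in these 3 comparisons, where that of all genes was within 0.01 of 0. MetaICM against ICM_6days gave 13 higher and 4 lower of 46 (15.7% and 12% of all genes), and against ICM_3days 14 higher and 5 lower of 46 (13.1% and 10.3%). Between 3 and 6 days, 1 gene was called in each direction of 44 tested, where 3.53% of all genes were higher and 4.54% lower: FBXO4, an F-box protein of cyclin D1 turnover, was higher (0.92 ± 0.24, edgeR adjusted p = 0.0106), and E2F7, a repressor E2F, lower (-1.30 ± 0.17, adjusted p = 2.21e-05).

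Partners of the members moved unevenly. CDK4 and CDK6, the kinases that D cyclins activate, differed from control by -0.01 and -0.13 after 3 days (edgeR adjusted p = 0.977 and 0.452). After 6 days CDK6 was at 0.47 (edgeR adjusted p = 0.00512), short of the threshold. CDK2, the target of p21 and p27, changed by -0.69 after 3 days (edgeR adjusted p = 0.00676) and by -0.74 after 6 days (adjusted p = 0.00265). CDC25A, the phosphatase that activates CDK2, changed by -1.63 at both times (edgeR adjusted p = 4.79e-05 and 3.92e-05). CDC37, the chaperone partner that delivers CDK4 to HSP90, was above control by 0.70 ± 0.20 after 6 days (edgeR adjusted p = 0.0161) and by 0.72 ± 0.20 in MetaICM (adjusted p = 0.0233). Its control replicates stood apart, at 158 and 92.0 CPM, and without control replicate 2 it was not called in MetaICM, where 0 pathway genes were then called higher.

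Downstream of the D cyclins, RB1 itself did not pass against control at either time (-0.16 and 0.19, edgeR adjusted p = 0.370 and 0.225). Its relative RBL1, which encodes p107, changed by -1.98 and -2.21 (edgeR adjusted p = 9.73e-07 and 1.30e-06). Of the 10 E2F and DP genes, 6 fell after 3 days and 5 after 6 days (13.2% and 17.2% of all genes). None was called higher at either time (8.85% and 13.3% of all genes). E2F8 changed by -4.53 and -4.76, and E2F2 by -3.62 and -4.62, with mean levels of 9.66 and 6.08 CPM in control and of 0.240 to 0.478 CPM with ICM. In MetaICM, E2F8 was below control by -0.68 ± 0.19 (edgeR adjusted p = 0.0276), a call lost without either MetaICM replicate, when 0 pathway genes were called lower. It was above ICM_6days by 4.09 ± 0.31 (edgeR adjusted p = 3.66e-10). Cyclin A2 (CCNA2) changed by -2.38 and -2.21 (edgeR adjusted p = 2.13e-07 and 6.76e-07) and cyclin E2 (CCNE2) by -1.80 and -1.35 (adjusted p = 0.000223 and 0.000935), while cyclin E1 (CCNE1) gave -0.45 and -0.14 and was not called. The markers of proliferating cells moved with these genes, with 7 of 8 called lower at each time (13.2% and 17.2% of all genes). Their part was not tested.

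**Figure D4:**
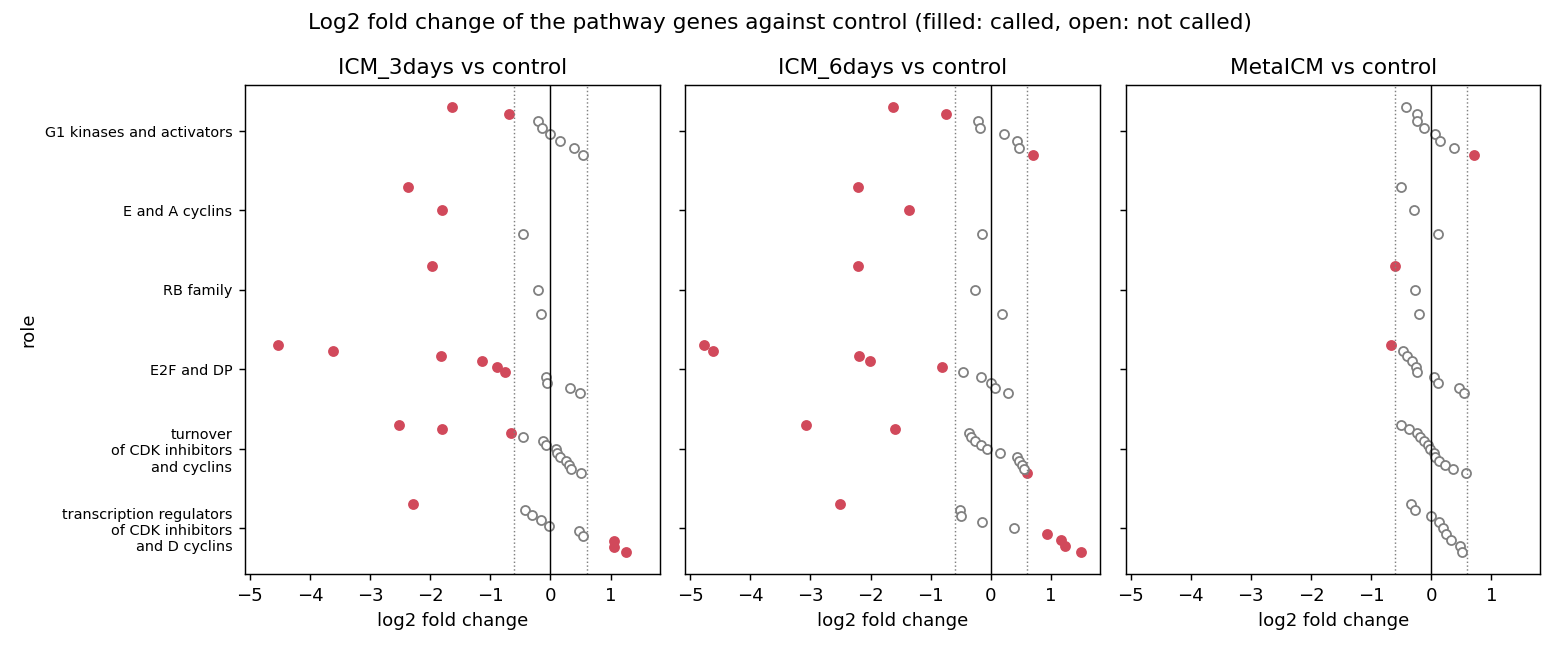
Log2 fold change against control of the pathway genes that were tested, by role, after 3 and 6 days of ICM and in MetaICM, with filled points for called genes and dotted lines at the threshold of 0.6. The lowest points with ICM are E2F8 at -4.53 and -4.76, and those in MetaICM stay between -0.68 and 0.72.

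Genes for the turnover of CDK inhibitors and cyclins were called lower in 3 of 13 after 3 days, and 0 were called higher (13.2% and 8.85% of all genes). After 6 days 2 of 13 were lower and 1 higher (17.2% and 13.3% of all genes), the latter being SKP1, a core subunit of SCF ligases, at 0.61 ± 0.11 (edgeR adjusted p = 0.00167). DTL, which targets p21 for degradation by the CUL4 ligase, changed by -2.52 ± 0.17 after 3 days (edgeR adjusted p = 4.24e-07) and -3.08 ± 0.17 after 6 days (adjusted p = 4.50e-07). CKS1B, the cofactor of SKP2 in p27 turnover, changed by -1.80 and -1.59 (edgeR adjusted p = 0.000796 and 0.000707), and SKP2 itself by -0.65 after 3 days (adjusted p = 0.00464) and by -0.26 after 6 days (adjusted p = 0.112), which was not called. CDKN1B, the gene of their substrate p27, was called at 3 days only, also lower.

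Of 10 transcription regulators of these genes, 3 rose and 1 fell after 3 days (8.85% and 13.2% of all genes), and of the 9 tested after 6 days 4 rose and 1 fell (13.3% and 17.2%). FOXO4, which can activate CDKN1A and CDKN1B, rose by 1.25 ± 0.26 (edgeR adjusted p = 0.00367) and 1.5 ± 0.23 (adjusted p = 0.000534) at 3 and 6 days. Its relative FOXO3 went the other way, by -0.42 and -0.50 (edgeR adjusted p = 0.0289 and 0.00608), short of the fold threshold. In control FOXO3 had a mean of 78.5 CPM and FOXO4 of 2.59 CPM. ETS2, an activator of CDKN2A, rose by 1.06 ± 0.13 (edgeR adjusted p = 9.81e-05) and 1.16 ± 0.12 (adjusted p = 4.11e-05), and ID1, a repressor of CDKN2A, rose by 1.05 ± 0.27 (adjusted p = 0.0118) and 1.23 ± 0.24 (adjusted p = 0.00260). EZH2, the Polycomb methyltransferase that represses the CDKN2A and CDKN2B locus, changed by -2.28 and -2.51 (edgeR adjusted p = 5.09e-07 and 9.83e-07). CBX7, a Polycomb protein that also represses this locus, was at 0.54 after 3 days (edgeR adjusted p = 0.0855), which was not called, and rose by 0.93 ± 0.19 after 6 days (adjusted p = 0.00283). The 3 regulators that rose at both times were below ICM_6days in MetaICM, by -1.03 ± 0.19 for FOXO4, -0.92 ± 0.07 for ETS2 and -0.91 ± 0.13 for ID1, and EZH2 was above ICM_6days by 2.17 (edgeR adjusted p = 1.23e-12).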

How the data were processed

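Factory RNA-Seq was measured in 8 IMR90 libraries, 2 in each of 4 conditions. Per the file headers and the submitters' processing notes, the authors aligned reads with STAR 2.6.0c to hg19 and counted read pairs over RefSeq exons with featureCounts 1.6.3, without strand, and deposited the raw counts per gene. The headers ask for primary alignments, and do not settle whether pairs that map to several places were counted. Every row named a gene.

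Each comparison was fitted to its own 4 libraries with edgeR 4.0.16 (R 4.3.3): filterByExpr with a minimum count of 10, TMM scaling, and its quasi-likelihood test without covariates, with p-values adjusted by Benjamini-Hochberg over all genes tested. A call required an adjusted p under 0.05 and an absolute log2 fold change over 0.6. The study states this fold with an adjusted p of 0.05 in one place and 0.01 in another. Standard errors are the log2 fold change divided by the square root of F. For factory RNA-Seq the study tested intronic counts with iRNAseq, and for poly(A) RNA it used RUVs and DESeq2. Here the exonic counts were used, and DESeq2 1.42.0 was an alternative. The fits were tested on simulated counts. The members, the lists of 47 pathway genes and of markers, and the tests were chosen with earlier results of these data known. Pathway genes were named as the 3 largest changes in each direction among called genes without overlap between libraries, and other list members after their values were seen. Patterns were compared on log2 CPM with a prior count of 2. Promoters came from RefSeq (GRCh38.p14) and were placed on GRCh37 by exact sequence. Alternatives were other scalings and filters, all 8 libraries in 1 fit, a replicate block, an adjusted p under 0.01, and leaving out each library, which leaves 1 library in an arm that is assumed to vary like the others. The values of 1 pathway gene are not reported here.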

Additional observations from a re-analysis of the deposited data

Results flagged for a closer look

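Members are given here where the direct test of 6 against 3 days of ICM gave an adjusted p under 0.05 (edgeR's quasi-likelihood test on 4 libraries), with no threshold on the fold. CDKN1C was lower at 6 days by -1.22, with both 6-day libraries below both 3-day libraries. CCND1 was higher by 0.70 and CCND2 by 0.73, each in 2 of 2 libraries. CDKN1B was higher by 0.52 and CCND3 by 0.57, both short of the fold threshold. Among the pathway genes named, FBXO4 was higher by 0.92 and E2F7 lower by -1.30. With 2 libraries a condition, a single library far from the others could not be looked for.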

How the results depend on the processing

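Of the log2 fold changes of the 10 members over the refits, 666 kept their direction and their side of the thresholds, 15 changed sign, 21 lost a call and 13 gained one. Outside these counts, an adjusted p under 0.01 would also end the calls of CDKN1B at 3 days (edgeR adjusted p = 0.0117), CDKN2B at 6 days (0.0141) and CCND3 in MetaICM (0.0131) against control, of CDKN1C between 6 and 3 days (0.0136) and of CDKN2A in MetaICM against ICM_3days (0.0411). All 15 sign changes came from leaving out 1 library, in differences that were not called. Over these fits the range was -0.26 to 0.43 for CDKN2A, -1.03 to 1.04 for CDKN2D and -0.32 to 0.0018 for CCND1 at 3 days against control, and -0.36 to 0.10 for CDKN2D at 6 days. Between 6 and 3 days it was -0.018 to 0.31 for CDKN1A, -0.013 to 0.54 for CDKN2A, -0.0042 to 0.39 for CDKN2C and -1.15 to 0.91 for CDKN2D. In MetaICM it was -0.088 to 0.011 for CDKN1B and -0.48 to 0.22 for CDKN1C against control, and -0.22 to 1.84 for CDKN2D and -0.19 to 0.076 for CCND3 against ICM_3days. Leaving out 1 library gave 1 to 3 members higher at 3 days against control (1 without control replicate 2), 2 to 4 higher and 0 to 1 lower between 6 and 3 days (4 without ICM_3days replicate 1), and 3 to 7 higher in MetaICM against ICM_3days (7 without ICM_3days replicate 1). The members lower between 6 and 3 days were also 0 with DESeq2 and at an adjusted p under 0.01. For pathway genes, leaving out 1 library gave 3 to 5 higher at 3 days against control (5 without control replicate 1), 1 to 2 higher and 1 to 2 lower between 6 and 3 days, 0 to 5 higher and 0 to 3 lower in MetaICM against control (5 higher without control replicate 1, 0 without control replicate 2, and 0 lower without either MetaICM replicate), and 3 to 4 lower in MetaICM against ICM_3days, where all libraries gave 5. Pathway genes higher between 6 and 3 days were 2 with upper-quartile factors, with all genes with a count and with all 8 libraries in 1 fit, and 0 at an adjusted p under 0.01. Pathway genes higher in MetaICM against control were 2 with all genes with a count and 0 at an adjusted p under 0.01. Those lower were 1 with DESeq2, library totals, at least 10 counts in each library, all genes with a count, all 8 libraries and an adjusted p under 0.01. The cause of these shifts was not tested, apart from the stricter threshold and the fewer libraries. Scaling moved the median of all genes by at most 0.0765. Replicates with the same number deviated together with an r between -0.127 and 0.208, so the numbers were not taken to pair the libraries. With the replicate number as a block the calls over all genes went from 3456 to 3915 at 3 days and from 4859 to 5116 at 6 days against control, from 1278 to 1450 between these, from 2609 to 2823 in MetaICM against control, from 4447 to 4484 against ICM_6days and from 3798 to 3799 against ICM_3days, and 1 member changed its call, CDKN2A in MetaICM against control (0.69, edgeR adjusted p = 0.0356). A crossed pairing for MetaICM against ICM_3days, chosen after seeing the data, gave 4 members higher and 2 lower. Low counts limit CDKN2D, CDKN2A and CDKN1C most.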
